A study of Mus musculus with 12 samples.

Results

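Potassium channel genes were described in RNA of mouse sciatic nerve. The set holds every gene whose symbol names a member of the Kcn gene families and whose mean raw count over the 12 libraries was at least 10, which left 70 of 92 such symbols among 38087 gene models. The symbol and the mean count chose the set, and no comparison between groups did, although earlier results of these data were known. A gene can pass the minimum through the groups where it is high. By symbol, 30 genes encode pore-forming subunits of voltage-gated channels, 10 encode their auxiliary subunits, 10 encode inward rectifiers, 9 encode tandem-pore (K2P) channels, and 11 encode channels opened by calcium or sodium or the partners of these. Just inside the minimum were Kcnh3 and Kcne1, with mean counts of 10.25 and 11.75, and just outside it were Kcng1 and Kcnc1, with 8.92 and 8.75. Kcnb2 stood on more than 1 line, and the line with a mean count of 109.0 was used in place of the one with 1.33.

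Potassium channels let potassium ions leave or enter a cell along their gradient and so set its resting potential and end its action potentials. In a myelinated nerve, voltage-gated channels of the Kv1 family sit in the axon membrane under the myelin beside each node of Ranvier, with the beta subunits Kvbeta and the adhesion protein Caspr2. Inward rectifiers and K2P channels carry background currents in glia and in vessel cells, and Schwann cells themselves carry voltage-gated currents. A nerve holds the axons but not the neuronal cell bodies, so most of its RNA comes from Schwann cells, fibroblasts, perineurial, vascular and immune cells.

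The 4 groups had 3 libraries each. Mice called dKO here (Dhh-Cre+:Tfebflox/flox;Tfe3KO) were Tfe3 knockouts by label and were to lose Tfeb in cells that express Cre recombinase under the Dhh promoter, active in Schwann cells and their precursors, while control mice (Dhh-Cre-:Tfebflox/flox;Tfe3+) carried the same floxed Tfeb alleles without Cre and are labelled Tfe3+. Tfeb and Tfe3 encode related transcription factors known for lysosomal genes, and the study asked about their role in the repair Schwann cells that form after injury. Each genotype was taken as the distal stump 5 days after transection (5DPI) and as the uncut nerve of the opposite side, and the labels name removal of the epineurium, the outer sheath, for the uncut nerves alone. Not given in the sources used here is the age of the mice, or whether a library is a single mouse, so p-values measure only the spread between these libraries.

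Library totals ran from 15430999 to 35845371 counts, and 22384 gene models, the 70 channel genes among them, were tested. The floxed exon cannot be checked in counts of whole genes: Tfeb stood at 14.2 to 29.8 CPM (counts scaled to the library total) in dKO nerve at 5 days, 18.2 to 24.0 CPM in control nerve at 5 days, 17.0 to 19.5 CPM in dKO intact nerve and 22.6 to 26.9 CPM in control intact nerve. Tfe3 stood at 49.5 to 53.8, 55.0 to 67.6, 43.3 to 47.4 and 56.7 to 62.1 CPM in the same order of groups, below control in each state and far from 0; these counts do not show a loss of its transcript, and the label was not checked by them. In 4 libraries, all 3 of dKO nerve at 5 days and replicate 4 of control nerve at 5 days, reads lay on 159 to 338 olfactory receptor genes at equal depth, against 44 to 63 in the other 8 libraries. These 4 are called the second library set here. Calls are given with and without a term for the set, and for the genotypes at 5 days the term leaves a comparison of the dKO libraries with that single control library. For injury in dKO nerve, the set's part is likewise set by that library against the other control libraries at 5 days. Replicate 1 of control nerve at 5 days had 10712 Xist counts, against at most 23 elsewhere. Replicate 2 of control intact nerve had low sums of markers of fat (238 CPM), perineurium (1680 CPM) and vessel wall (711 CPM), against 1420 to 2430, 2710 to 2920 and 1100 to 1130 CPM in the other control intact libraries. Myelin genes, which define the tissue, summed to 80000 to 105000 CPM in intact nerve.

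Voltage-gated Kv1 channels led the set in every group. Per kilobase of exon, Kcna5, which encodes the delayed rectifier Kv1.5 known from Schwann cells, averaged 50.1 CPM per kb in dKO nerve at 5 days, 65.7 in control nerve at 5 days, 173 in dKO intact nerve and 196 in control intact nerve, or 23.0%, 26.8%, 33.1% and 36% of the summed level of all 70 genes. Kcna1, which encodes the axonal Kv1.1, ranked next with 22.7, 28.8, 80.9 and 96.5 CPM per kb. The K2P gene Kcnk1 came next in intact nerve, with 68.8 CPM per kb in dKO and 59.5 in control, and was not among the leading 5 at 5 days, where Kcna6, Kcnk2 and Kcnq5 followed the Kv1 pair in both genotypes. The channel genes together took 0.0927% to 0.126% of all counts at 5 days and 0.165% to 0.213% in intact nerve.

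**Figure D1:**
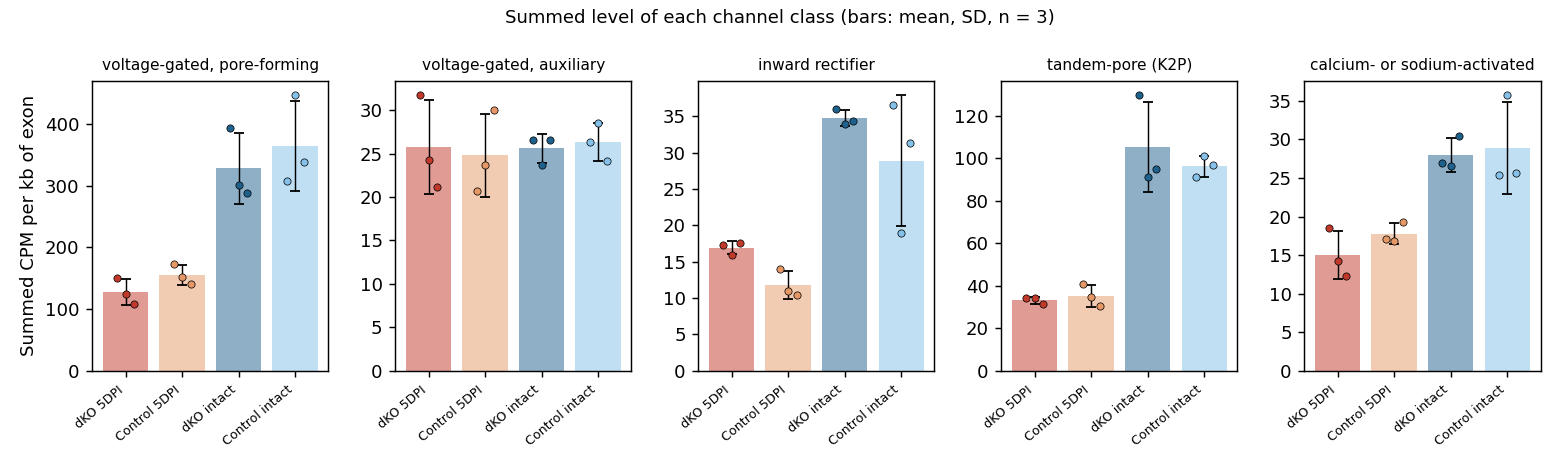
Summed level of the 5 channel classes, in CPM per kb of exon, by group (bars are means, whiskers SD, points the 3 libraries; each panel has its own axis from 0). In both genotypes the voltage-gated pore-forming and K2P sums at 5 days lie below every intact library, and the auxiliary sums overlap between all groups.

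Summed by class, 4 classes stood lower at 5 days than in intact nerve in both genotypes and the auxiliary subunits did not. Voltage-gated pore-forming genes summed to 128 ± 21.7 CPM per kb in dKO nerve at 5 days and 155 ± 16.3 in control nerve at 5 days, against 328 ± 57.2 in dKO intact nerve and 365 ± 73.5 in control intact nerve (SD, n = 3 each). K2P genes summed to 33.2 ± 1.7, 35.3 ± 5.22, 106 ± 21.3 and 96.3 ± 4.91 CPM per kb in the same order. These sums rest on their leading genes, Kcna5 and Kcna1 in the one class and Kcnk1 in the other. Inward rectifiers summed to 17.3, 15.9 and 17.5 CPM per kb in dKO nerve at 5 days, 14.0, 11 and 10.4 in control nerve at 5 days, 36, 33.9 and 34.3 in dKO intact nerve and 36.5, 18.9 and 31.3 in control intact nerve, where the low value is replicate 2. Theirs was the sole class sum whose dKO libraries at 5 days all stood above all control libraries at 5 days. Calcium- or sodium-activated genes summed to 15 ± 3.18, 17.7 ± 1.37, 28.0 ± 2.18 and 28.9 ± 5.95, and auxiliary genes to 25.8 ± 5.45, 24.8 ± 4.8, 25.6 ± 1.67 and 26.4 ± 2.15. In bulk RNA, fewer cells of a type and less RNA per cell cannot be told apart.

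**Figure D2:**
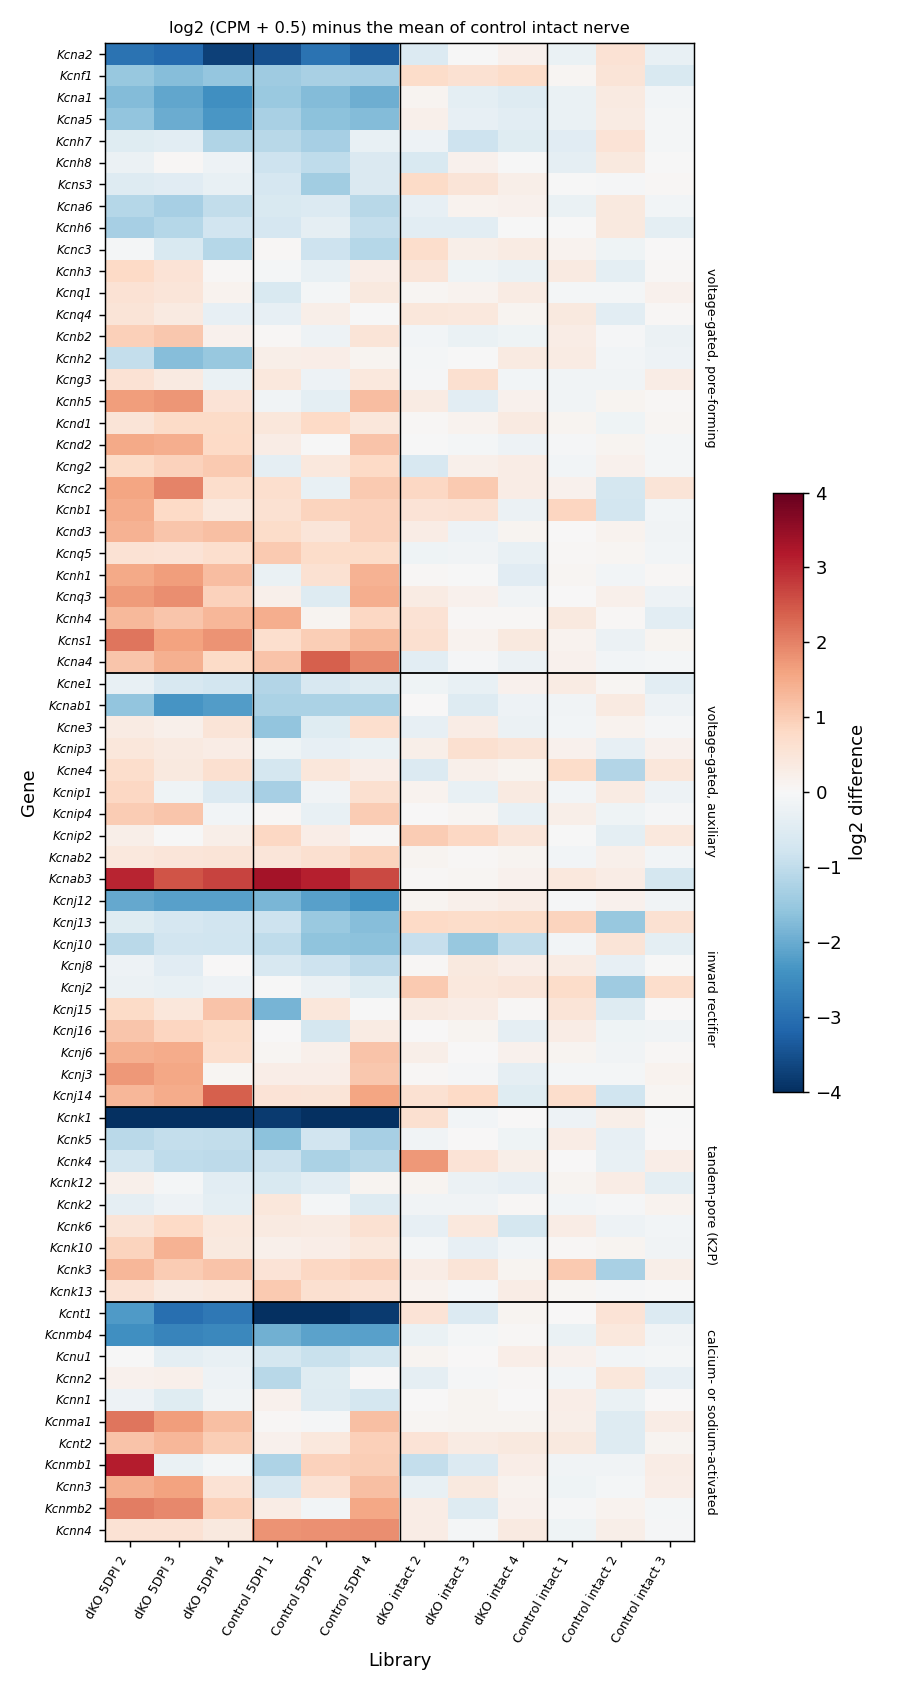
Level of 69 channel genes in each library, as log2(CPM + 0.5) minus its mean in control intact nerve, by class and ordered by the injury change; columns are the 12 libraries and colours end at 4 in either direction. Kcnk1, Kcna2, Kcnt1 and Kcnmb4 are blue in all 6 libraries at 5 days, and replicate 4 of control nerve at 5 days shares red rows with the dKO libraries beside it.

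Injury was compared within each genotype, 5 days over intact, by edgeR's quasi-likelihood test with Benjamini-Hochberg adjustment over all tested genes at a threshold of 0.05. In dKO nerve 22 of 70 channel genes rose (31.4%, beside 22.0% of all genes tested) and 17 fell (24.3%, beside 22.6%). In control nerve 9 rose (12.9%, beside 24.4%) and 20 fell (28.6%, beside 22.4%). By overlap alone, 30 genes in dKO nerve had all libraries at 5 days above all intact ones and 24 had all below (42.9% and 34.3%, beside 31.1% and 29.9% of all genes tested), and in control nerve 12 and 18 did (17.1% and 25.7%, beside 27.8% and 25.5%). The median log2 change of the 70 was 0.33 in dKO nerve and -0.05 in control nerve, against 0.05 and 0.09 over all genes tested. Both genotypes shared 15 falling genes, which are 88.2% of those of dKO nerve and 75.0% of those of control nerve. They shared 7 rising genes, 31.8% and 77.8% of the lists, and these were Kcna4, Kcnab2, Kcnab3, Kcnd1, Kcnd3, Kcnq5 and Kcns1.

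**Figure D3:**
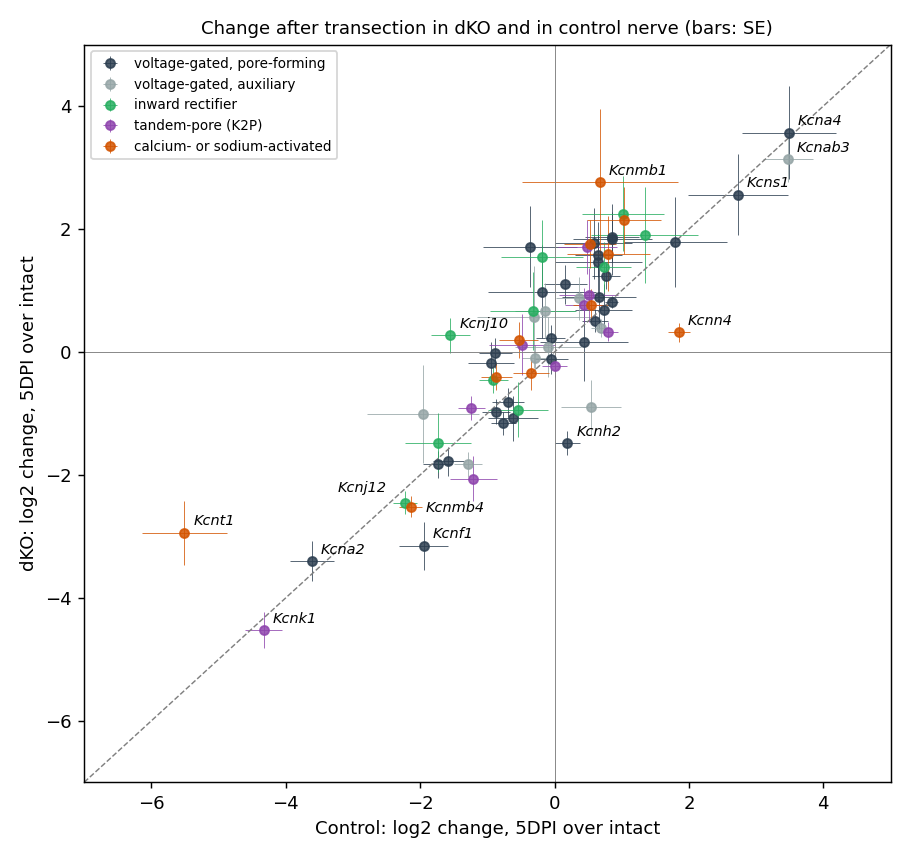
log2 change after transection of the 70 channel genes in dKO nerve (vertical axis) against control nerve (horizontal axis), with SE as whiskers, colours by class, and equality as the broken line; both axes come from libraries of their own. Kcnk1, Kcna2, Kcnj12 and Kcnmb4 lie low in both genotypes, Kcnab3 and Kcna4 high in both, and Kcnh2, Kcnn4 and Kcnj10 lie off the line.

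Among voltage-gated pore-forming genes, 11 of 30 rose and 9 fell in dKO nerve (36.7% and 30.0%, beside 22.0% and 22.6% of all genes tested). In control nerve 5 rose and 9 fell (16.7% and 30.0%, beside 24.4% and 22.4%). The Kv1 genes of chromosome 6, Kcna5, Kcna1 and Kcna6, which lie within 208.1 kb, all fell. Kcna5 (chr6:126532551-126535412) had 184, 138 and 109 CPM in dKO nerve at 5 days, 223, 177 and 164 CPM in control nerve at 5 days, 637, 437 and 409 CPM in dKO intact nerve and 457, 700 and 527 CPM in control intact nerve. Every library at 5 days stood below every intact library, while both genotypes overlapped in either state. In dKO nerve its log2 change was -1.78 (SE 0.23, adjusted p = 4.37e-05), and in control nerve -1.58 (SE 0.23, adjusted p = 8.93e-05). Kcna1 (chr6:126640397-126646384), which encodes the channel of the axonal juxtaparanode, had 137, 106 and 82.8 CPM in dKO nerve at 5 days, 160, 135 and 118 CPM in control nerve at 5 days, 493, 349 and 319 CPM in dKO intact nerve and 378, 583 and 423 CPM in control intact nerve. It fell alike, by 1.83 on the log2 scale in dKO nerve and by 1.74 in control nerve.

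Kcna2 (chr3:107101146-107115005), which encodes Kv1.2, the partner of Kv1.1 at the juxtaparanode, fell furthest of the Kv1 genes. It had 2.42, 2.14 and 1.21 CPM in dKO nerve at 5 days, 1.5, 2.45 and 1.73 CPM in control nerve at 5 days, 15.1, 22.0 and 25.4 CPM in dKO intact nerve and 18.4, 33.4 and 18.0 CPM in control intact nerve. The states did not overlap and the genotypes did. After transection the change was -3.40 (SE 0.33, adjusted p = 1.52e-06) in dKO nerve and -3.61 (SE 0.33, adjusted p = 5.99e-07) in control nerve. Kcna6, which encodes Kv1.6, fell by 1.16 (adjusted p = 0.000294) and by 0.76 (adjusted p = 0.00494), but 39.61% of its exon bases are shared with an antisense gene, whose reads cannot be told apart without strand. Kcnf1, which encodes a silent subunit that modifies Kv2 channels, had 0.544, 0.417 and 0.52 CPM in dKO nerve at 5 days, 0.626, 0.723 and 0.698 CPM in control nerve at 5 days, 4.56, 4.09 and 4.51 CPM in dKO intact nerve and 2.67, 3.84 and 1.48 CPM in control intact nerve. Its log2 change was -3.15 (SE 0.39, adjusted p = 1.67e-05) in dKO nerve and -1.95 (SE 0.37, adjusted p = 0.000594) in control nerve, and no test found these changes to differ (difference -1.19, SE 0.53, adjusted p = 0.286).

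Kcnq5 (chr1:21398403-21961942), which encodes a channel of the slow M-current, had the highest level per length at 5 days among the channel genes that rose in both genotypes. It had 69.5, 67.0 and 73.0 CPM in dKO nerve at 5 days, 95.7, 77.1 and 77.1 CPM in control nerve at 5 days, 40.8, 41.3 and 37.7 CPM in dKO intact nerve and 47.3, 48.2 and 42.9 CPM in control intact nerve. The 5-day libraries all stood above the intact ones, and in each state every dKO library stood below every control library, although neither genotype difference passed the test (at 5 days -0.26, adjusted p = 0.127). The rise was 0.81 (SE 0.10, adjusted p = 2.42e-05) in dKO nerve and 0.85 (SE 0.10, adjusted p = 1.03e-05) in control nerve. Its relative Kcnq3 rose in dKO nerve by 1.83 (adjusted p = 0.0198), at levels of at most 4.2 CPM, and its value in control nerve was 0.86. With the set term its value in dKO nerve turned to -0.27 (SE 0.75, adjusted p = 0.852). Kcnd1 and Kcnd3, which encode the A-type channels Kv4.1 and Kv4.3, rose by 0.51 and 1.23 in dKO nerve and by 0.60 and 0.77 in control nerve. Kcnd1 lies on chromosome X 47.1 kb from Tfe3, which the dKO label names as knocked out, and its genotype values were 0.20 in intact nerve and 0.11 at 5 days, both without a call. Kcna4 and Kcns1 rose in both genotypes from near 0: Kcna4 had 0.936, 1.28 and 0.636 CPM in dKO nerve at 5 days and 0.971, 2.99 and 2.05 CPM in control nerve at 5 days, while no intact library passed 0.256 CPM. Its log2 change was 3.57 (SE 0.76, adjusted p = 0.00161) in dKO nerve and 3.49 (SE 0.70, adjusted p = 0.000849) in control nerve. Kcna4 and Kcns1 passed the minimum mean count through their libraries at 5 days, so a rise was partly built into their choice.

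The auxiliary subunits moved in both directions. Kcnab1 (chr3:65109384-65378223) and Kcnab3 (chr11:69326258-69333042) encode beta subunits that bind Kv1 channels inside the cell, and they went opposite ways. Kcnab1 had 30.8, 17.7 and 19.5 CPM in dKO nerve at 5 days, 38.2, 38.9 and 39.0 CPM in control nerve at 5 days, 95, 65.3 and 81.4 CPM in dKO intact nerve and 84.8, 119 and 81.1 CPM in control intact nerve. Injured and intact libraries did not overlap, and at 5 days each dKO library stood below each control library. On the log2 scale this was -1.83 (SE 0.21, adjusted p = 1.42e-05) in dKO nerve and -1.29 (SE 0.21, adjusted p = 0.00018) in control nerve. Kcnab3 had 11.9, 8.0 and 9.19 CPM in dKO nerve at 5 days, 14.6, 12.3 and 8.87 CPM in control nerve at 5 days, 1.03, 1.07 and 1.19 CPM in dKO intact nerve and 1.5, 1.32 and 0.422 CPM in control intact nerve. It stood at low levels in every intact library and rose in both genotypes, by a log2 change of 3.14 (SE 0.37, adjusted p = 9.34e-06) in dKO nerve and 3.47 (SE 0.37, adjusted p = 2.86e-06) in control nerve. Kcnab2 rose by 0.39 and 0.69. Kcnip1, which encodes a calcium-binding partner of Kv4 channels, had 53.1, 26.6 and 20.4 CPM in dKO nerve at 5 days, 11.6, 26.9 and 46.2 CPM in control nerve at 5 days and 23.9 to 38.3 CPM in intact nerve; its libraries overlapped in every comparison and it passed no test.

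**Figure D4:**
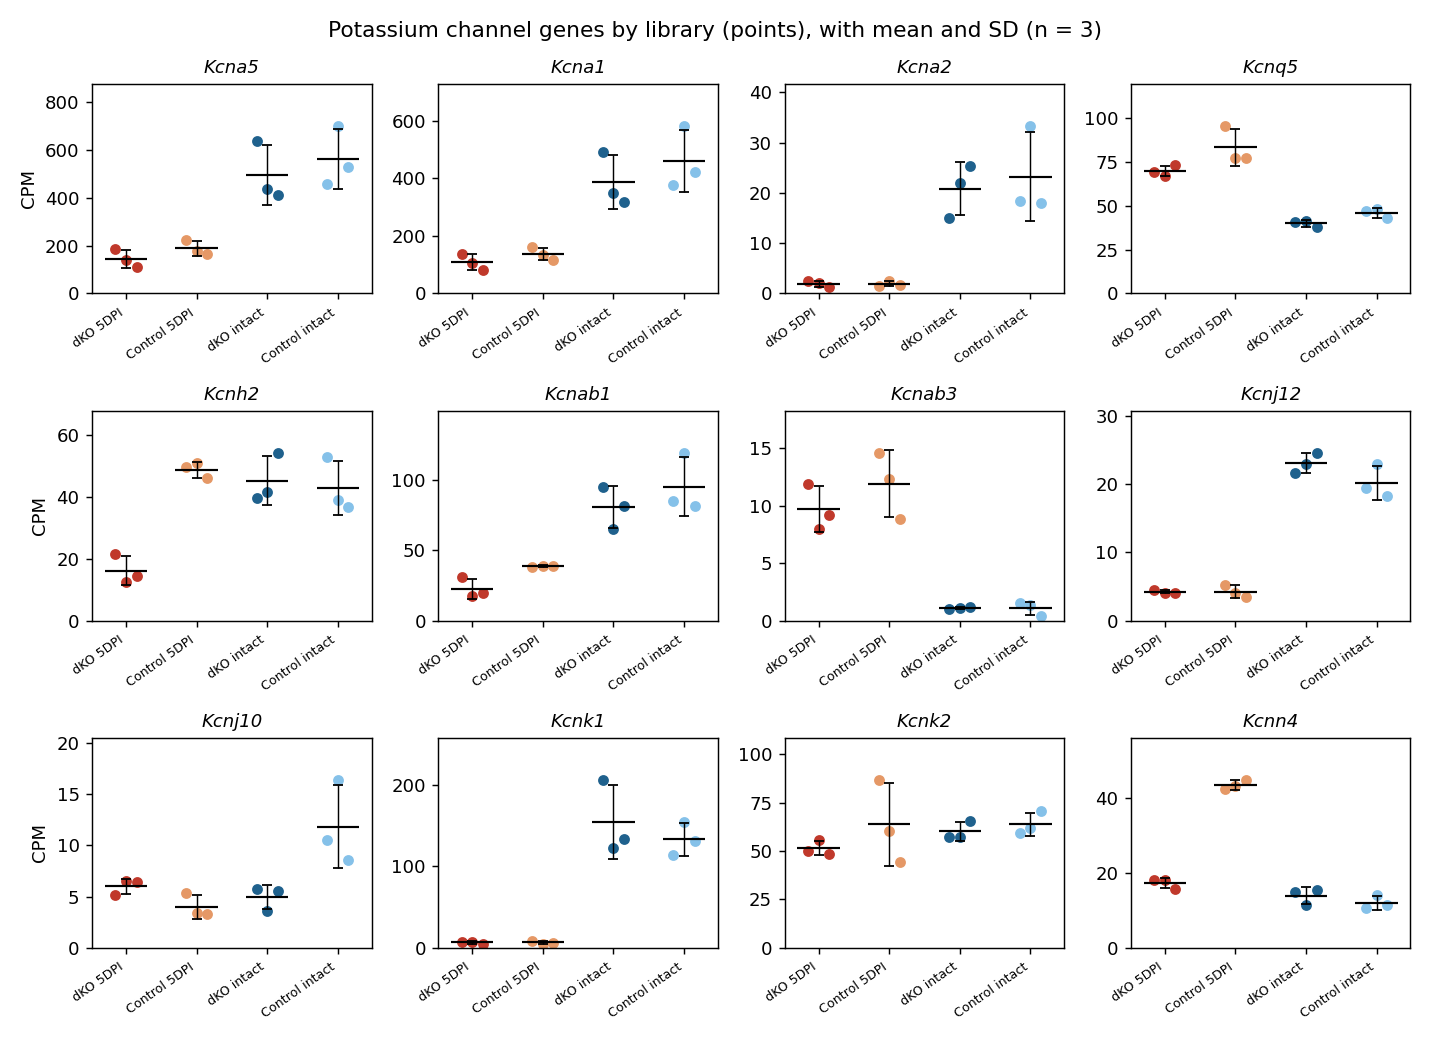
CPM of 12 channel genes in each library (points), with the mean and SD of each group of 3. Kcna5, Kcna1, Kcna2, Kcnj12 and Kcnk1 are low in both groups at 5 days, Kcnq5 and Kcnab3 are high in both, Kcnh2 is low in dKO nerve at 5 days alone of the 4 groups, and Kcnn4 is high in control nerve at 5 days alone.

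Of the 10 inward rectifiers, 3 rose and 2 fell in dKO nerve (30.0% and 20.0%, beside 22.0% and 22.6% of all genes tested). In control nerve 0 rose and 4 fell (0.0% and 40%, beside 24.4% and 22.4%). Kcnj12 (chr11:61022564-61071131), which encodes the strong rectifier Kir2.2, was the clearest. It had 4.47, 4.11 and 4.1 CPM in dKO nerve at 5 days, 5.29, 4.06 and 3.45 CPM in control nerve at 5 days, 21.7, 23.0 and 24.6 CPM in dKO intact nerve and 19.4, 22.9 and 18.2 CPM in control intact nerve. Injured libraries all stood below intact ones in a narrow band, and the genotypes overlapped. Transection changed it by -2.45 (SE 0.18, adjusted p = 9.98e-08) in dKO nerve and -2.23 (SE 0.18, adjusted p = 1.45e-07) in control nerve. Kcnj2, which encodes the related Kir2.1, had 15.6 to 16.6 CPM in dKO nerve at 5 days, 13.6 to 18.9 in control nerve at 5 days, 25.9 to 40.1 in dKO intact nerve and 32.2, 6.82 and 31.4 CPM in control intact nerve, and passed no test. Kcnj13, which encodes the weak rectifier Kir7.1, fell by 1.48 (adjusted p = 0.0274) in dKO nerve and by 1.73 (adjusted p = 0.0128) in control nerve. Its control intact libraries held 19.1, 3.22 and 15.6 CPM. With the set term the value in dKO nerve was -0.80 (SE 0.91, adjusted p = 0.609). The calls were also lost, at values near those above, without replicate 3 or 4 of dKO intact nerve or any dKO library at 5 days (-1.57 to -1.43, adjusted p = 0.0543 to 0.0788), and in control nerve without replicate 2 or 4 at 5 days (-1.63 to -1.54, adjusted p = 0.0502 to 0.051). Replicate 2 is the low library for Kcnj2, Kcnj13, Kcnj14 and Kcnk3 alike, and it is the library with the low fat, perineurium and vessel wall sums; the part of these in the values was not tested. Of the exon bases of Kcnj13, 49.06% are shared with exons of Gigyf2 on the other strand.

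Kcnj8 (chr6:142564837-142571614) and its partner Abcc9 encode the pore and the sulfonylurea subunit of the ATP-sensitive channel of vessel wall cells. Kcnj8 had 9.12, 7.64 and 10.7 CPM in dKO nerve at 5 days, 6.61, 5.79 and 4.89 CPM in control nerve at 5 days, 10.9, 14.0 and 12.9 CPM in dKO intact nerve and 13.6, 8.35 and 10.6 CPM in control intact nerve. At 5 days each dKO library stood above each control library, and in intact nerve they overlapped. It fell in control nerve by 0.91 (adjusted p = 0.003) and had -0.46 (adjusted p = 0.092) in dKO nerve, and its genotype value at 5 days was 0.66 (adjusted p = 0.0626). Abcc9 passed no test, with 29.2, 20.2 and 18.6 CPM in dKO nerve at 5 days and 10.4, 17.1 and 18.1 CPM in control nerve at 5 days. Markers of vessel wall cells, of which 1 of 9 was higher in dKO nerve at 5 days, summed to 810 to 2850 CPM there and 675 to 874 CPM in control nerve at 5 days, with no marker at 0; their part in these values was not tested.

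K2P channels carry leak currents. Of 9, 2 rose and 3 fell in dKO nerve (22.2% and 33.3%, beside 22.0% and 22.6% of all genes tested). In control nerve 1 rose and 3 fell (11.1% and 33.3%, beside 24.4% and 22.4%). Kcnk1 (chr8:125995170-126030685), which encodes TWIK-1, had the steepest fall of the 70 genes in dKO nerve. It had 7.7, 7.2 and 4.91 CPM in dKO nerve at 5 days, 8.77, 4.65 and 6.45 CPM in control nerve at 5 days, 206, 123 and 133 CPM in dKO intact nerve and 114, 154 and 131 CPM in control intact nerve. No injured library came near an intact one, and the genotypes overlapped in both states. The log2 change was -4.52 (SE 0.29, adjusted p = 1.78e-07) in dKO nerve and -4.33 (SE 0.28, adjusted p = 1.54e-07) in control nerve. Most myelin genes fell too: of 12, 11 fell and 1 rose in dKO nerve, and 12 fell in control nerve. They summed to 4590 to 5680 CPM in dKO nerve at 5 days and 1630 to 2320 in control nerve at 5 days. In intact nerve the sums were 86900 to 96900 CPM in dKO and 80000 to 105000 in control. At 5 days 11 of 12 myelin genes were higher in dKO than in control nerve (median log2 difference 1.94), beside 3.12% of all genes tested. The Kcnk1 difference was 0.01 (SE 0.27, adjusted p = 0.98).

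Kcnk2 (chr1:189207930-189402273), which encodes the stretch- and lipid-sensitive TREK-1, had 50.1, 55.5 and 48.7 CPM in dKO nerve at 5 days, 86.8, 60.3 and 44.4 CPM in control nerve at 5 days, 57.5, 57.3 and 65.7 CPM in dKO intact nerve and 59.4, 61.9 and 70.7 CPM in control intact nerve. The states overlapped in control nerve but not in dKO nerve, and it passed no test in either genotype (adjusted p = 0.333 in dKO nerve and 0.991 in control nerve). Kcnk5, which encodes the acid-sensitive TASK-2, fell by 0.91 in dKO nerve and by 1.24 in control nerve. Kcnk4, which encodes TRAAK, fell by 2.06 and by 1.21, and 13.15% of its exon bases are shared with Catsperz on the same strand. Kcnk13, which encodes THIK-1, known from microglia, rose in control nerve by 0.80 (adjusted p = 0.000596) and had 0.33 (adjusted p = 0.0945) in dKO nerve. All 11 macrophage genes tested rose in both genotypes, and they summed to 1210 to 1660 CPM in dKO nerve at 5 days, 1230 to 2040 in control nerve at 5 days, 206 to 338 in dKO intact nerve and 185 to 325 in control intact nerve; their part in the value of Kcnk13 was not tested.

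Among calcium- or sodium-activated channels and their partners, 4 of 11 rose and 2 fell in dKO nerve (36.4% and 18.2%, beside 22.0% and 22.6% of all genes tested). In control nerve 1 rose and 3 fell (9.09% and 27.3%, beside 24.4% and 22.4%). Kcnmb4 (chr10:116417861-116473878), which encodes the neuronal beta subunit of the large-conductance BK channel, had 10.6, 9.2 and 9.82 CPM in dKO nerve at 5 days, 15.7, 13.2 and 13.1 CPM in control nerve at 5 days, 50.1, 57.4 and 62.1 CPM in dKO intact nerve and 49.9, 80.7 and 54.9 CPM in control intact nerve. It fell with no overlap between states, by 2.52 (SE 0.17, adjusted p = 5.1e-08) in dKO nerve and by 2.14 (SE 0.17, adjusted p = 1.27e-07) in control nerve. Of its exon bases, 10.68% are shared with the antisense gene Kcnmb4os1 and 20.85% with Kcnmb4os2, whose reads cannot be told apart without strand. Kcnt1 (chr2:25863734-25918273), which encodes the sodium-activated channel Slack, had 4.65, 2.58 and 2.89 CPM in dKO nerve at 5 days, 0.125, 0.409 and 1.23 CPM in control nerve at 5 days, 35.5, 16.4 and 26.4 CPM in dKO intact nerve and 24.7, 35.3 and 16.3 CPM in control intact nerve. Injured libraries all stood below intact ones, and the dKO libraries at 5 days stood above the control ones, of which replicate 4 was highest. The log2 change was -2.94 (SE 0.52, adjusted p = 0.000974) in dKO nerve and -5.51 (SE 0.63, adjusted p = 3.04e-05) in control nerve. Kcnmb1, the beta subunit of BK channels in smooth muscle, had 13.4, 0.806 and 0.982 CPM in dKO nerve at 5 days, and the high library is the one with 2850 CPM of vessel wall markers; it passed no test.

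Low-level genes made up most of the channel genes called higher in dKO nerve alone. The 15 such genes include Kcnb2, Kcnd2, Kcnh1, Kcnh5, Kcnj3, Kcnj6, Kcnj16, Kcnk6, Kcnk10, Kcnma1, Kcnmb2, Kcnn3, Kcnq3 and Kcnt2. Of the 29 channel genes with a mean under 5 CPM, 14 rose and 2 fell in dKO nerve (48.3% rose, beside 22.0% of all such low genes), and 2 rose and 2 fell in control nerve (beside 14.5% and 10.4%). Of the 41 channel genes at or above 5 CPM, 8 rose and 15 fell in dKO nerve and 7 rose and 18 fell in control nerve (beside 22.0%, 31.2%, 29.6% and 28.9% of all genes at that level). The second library set moved with these calls. Kcnh1, for example, which encodes the Eag1 channel, had 6.46, 7.2 and 5.14 CPM in dKO nerve at 5 days, 1.5, 3.18 and 5.83 CPM in control nerve at 5 days and 1.26 to 2.05 CPM in intact nerve, so that control replicate 4 lay among the dKO libraries. Among the 22 genes that rose in dKO nerve, replicate 4 stood above both other control libraries at 5 days in 18 genes. The median difference from their mean was 0.64 on the log2(CPM + 0.5) scale, against -0.05 over all genes tested. It was above 0 in 19 of the 22, beside 9962 of all 22384 genes tested. The 29 channel genes under 5 CPM, called or not, had a median of 0.67, with 27 above 0, against 0.2 over all such low genes. The 41 channel genes at or above 5 CPM had -0.01, against -0.1 over all genes at that level. With a term for the set, 2 of the 22 kept their call, Kcnq5 and Kcnab3, and 11 of the 17 falling genes kept theirs, Kcna1, Kcna2, Kcna5, Kcnk1, Kcnj12, Kcnmb4 and Kcnt1 among them. Over all genes tested, calls in dKO nerve also became fewer with the term. They numbered 2146 higher and 2153 lower, against 4930 and 5067 without it. The 20 rises of channel genes that were lost had a median of 0.42 with the term, against 1.66 without it. Of these rises, 15 were smaller by over 1.5 times or turned sign. Kcnq3 and Kcnh5 turned, both to -0.27. Kcna4 (3.51, adjusted p = 0.0644), Kcnd1 (0.70, adjusted p = 0.175), Kcnd3 (0.92, adjusted p = 0.0975), Kcns1 (1.78, adjusted p = 0.306) and Kcnk10 (1.43, adjusted p = 0.23) were not among these 15. Of the 6 lost falls, Kcnk4 (-1.99, adjusted p = 0.0531) and Kcnk5 (-0.73, adjusted p = 0.197) stayed near their values, and Kcna6 had -0.63 (adjusted p = 0.184). In control nerve 9 of 9 and 19 of 20 calls were kept. There the term leaves replicates 1 and 2 at 5 days against the intact libraries, all outside the second set. Kcnt1, for example, had -6.55 both with the term and without replicate 4. The calls kept in control nerve are therefore no test of the set. The rising genes of dKO nerve span a median of 192 kb of genome, the falling ones 32.0 kb and those without a call 45.9 kb. In control nerve the medians were 16.4, 34.2 and 65.6 kb in the same order. The part of gene span in the calls was not tested.

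In intact nerve no channel gene passed the test between genotypes in either direction, beside 0.0% of all genes tested called higher and 0.00447% called lower. At an unadjusted p under 0.05 by edgeR there were 5 of 70 (7.14%, beside 5.8% of all genes tested). At the adjusted threshold DESeq2 and limma-trend also called 0 of the 70. The libraries of both genotypes overlapped for most genes: 6 channel genes had every dKO intact library above every control intact one and 2 had every one below (8.57% and 2.86%, beside 7.37% and 7.18% of all genes tested). The smallest p was that of Kcnj10, described with the difference of injury changes.

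At 5 days 3 channel genes were higher in dKO than in control nerve, Kcnt1, Kcnip3 and Kcnma1 (4.29%, beside 3.12% of all genes tested), and 3 were lower, Kcnh2, Kcnn4 and Kcnab1 (4.29%, beside 8.97%). The median difference of the 70 was 0.46, against -0.02 over all genes tested. With the term for the library set, the calls of Kcnh2 and Kcnn4 were kept and those of the other 4 genes were not. By overlap alone, 14 channel genes had every dKO library at 5 days above every control library and 7 had every one below (beside 12.6% and 17.9% of all genes tested). The 6 called genes belong to the voltage-gated and the calcium- or sodium-activated classes. The 10 inward rectifiers had a median difference of 0.78, and in 4 of them every dKO library at 5 days stood above every control one.

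**Figure D5:**
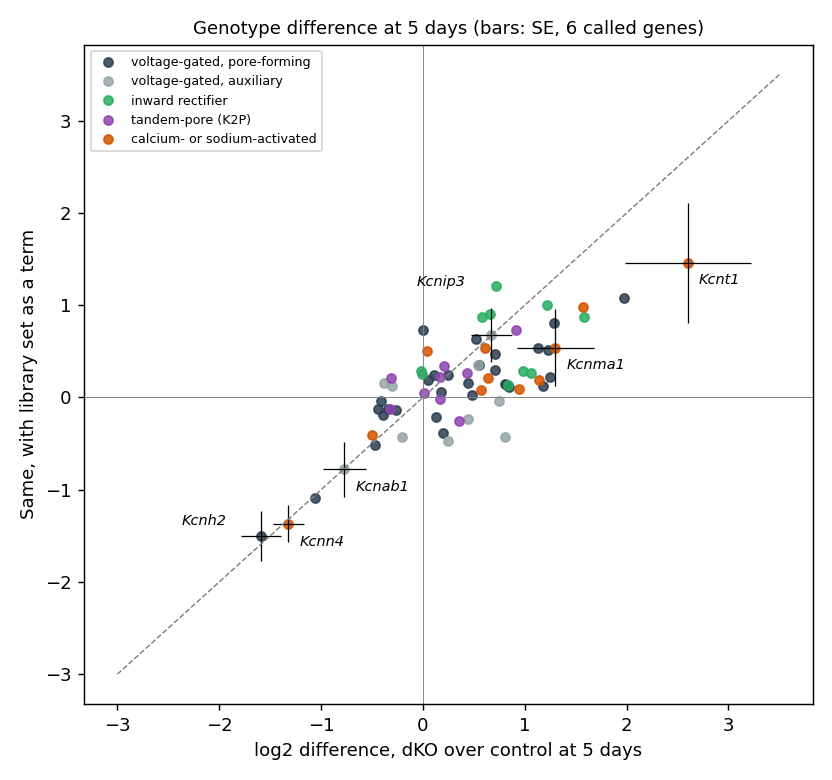
Genotype difference at 5 days of the 70 channel genes, log2 of dKO over control: all libraries on the horizontal axis and with the library set as a term on the vertical axis, colours by class, SE whiskers on the 6 called genes, equality as the broken line. Kcnh2 and Kcnn4 keep their size with the term, and Kcnt1 and Kcnma1 move towards 0.

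Kcnh2 (chr5:24319589-24351604), which encodes the erg1 channel that repolarizes the heart, was lower in dKO nerve at 5 days than in the 3 other groups. It had 21.6, 12.6 and 14.3 CPM in dKO nerve at 5 days, 49.5, 50.8 and 45.9 CPM in control nerve at 5 days, 39.7, 41.5 and 54.2 CPM in dKO intact nerve and 52.7, 39.1 and 36.6 CPM in control intact nerve. The 3 dKO libraries at 5 days stood below all 9 others, and the rest overlapped. The genotype difference at 5 days was -1.59 (SE 0.20, adjusted p = 0.00016), and with the set term it was -1.50 (SE 0.27, adjusted p = 0.0114). It fell after injury in dKO nerve by 1.48 (SE 0.20, adjusted p = 3.96e-05) and had 0.19 (SE 0.19, adjusted p = 0.458) in control nerve.

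Kcnn4 (chr7:24370263-24386690), which encodes the intermediate-conductance calcium-activated channel KCa3.1, known from lymphocytes and macrophages, was high in control nerve at 5 days alone of the 4 groups. It had 18.1, 18.2 and 15.7 CPM in dKO nerve at 5 days, 42.3, 43.1 and 44.8 CPM in control nerve at 5 days, 14.8, 11.3 and 15.5 CPM in dKO intact nerve and 10.5, 14.1 and 11.4 CPM in control intact nerve. The control libraries at 5 days, replicate 4 of the second set included, lay close together and above all 9 others. The genotype difference at 5 days was -1.32 (SE 0.15, adjusted p = 7.07e-05), while the set term gave -1.37 (SE 0.20, adjusted p = 0.00314). It rose after injury in control nerve by 1.85 (SE 0.16, adjusted p = 2.15e-07), and had 0.32 (SE 0.15, adjusted p = 0.0969) in dKO nerve.

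Marker lists were read beside Kcnh2 and Kcnn4 for the genotypes at 5 days. At 5 days all 9 genes of cell division were lower in dKO nerve (median log2 difference -1.37), beside 8.97% of all genes tested. They summed to 278 to 344 CPM, against 724 to 949 CPM in control nerve. Of 10 repair Schwann cell genes, 7 were lower in dKO nerve (median -1.32), with sums of 1380 to 1580 CPM against 2980 to 4050 CPM. After injury all genes of both lists rose in both genotypes. Kcnh2 fell in dKO nerve and passed no test in control nerve. Kcnn4 rose in control nerve and passed no test in dKO nerve. Of 8 lymphocyte genes tested, 1 was higher and 1 lower, with sums of 18.0 to 33.4 CPM in dKO nerve. In control nerve replicates 1, 2 and 4 had 282, 96.8 and 70.4 CPM, and replicate 1 is the library with the high Xist count. Of 11 macrophage genes tested, 1 was higher and 1 lower. No marker of these lists was at 0, and their part in the values of Kcnh2 and Kcnn4 was not tested.

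Tfeb and Tfe3 bind the E-box CACGTG, so the 250 bases before the RefSeq start sites (build GRCm38.p6) were read for it. A promoter was listed for 51 of the 70 genes, and 5 of these held the motif, Kcnab1, Kcne4, Kcnh4, Kcnj2 and Kcnn4. That is 9.8% of genes and 8.0% of their 75 windows, beside 6.02% of all 32851 windows; the motif is its own reverse complement, so both strands are read together. The windows of the 3 genes that were lower in dKO nerve at 5 days are shown 5′ to 3′ on the strand of the gene, with the motif in capitals; for Kcnab1 a window with the motif is shown out of 3 start sites, of which 2 hold it.
Kcnn4, chr7:24370013-24370262, plus strand: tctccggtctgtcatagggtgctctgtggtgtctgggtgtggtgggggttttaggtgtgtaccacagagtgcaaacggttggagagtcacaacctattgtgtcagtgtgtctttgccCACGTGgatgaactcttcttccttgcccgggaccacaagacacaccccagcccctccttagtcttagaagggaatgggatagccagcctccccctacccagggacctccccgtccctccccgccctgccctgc
Kcnh2, chr5:24329592-24329841, minus strand: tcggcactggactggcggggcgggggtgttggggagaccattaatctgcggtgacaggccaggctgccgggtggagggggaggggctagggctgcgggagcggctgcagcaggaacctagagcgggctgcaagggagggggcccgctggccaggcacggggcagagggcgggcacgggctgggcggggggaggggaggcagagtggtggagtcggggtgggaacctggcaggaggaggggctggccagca
Kcnab1, chr3:65108764-65109013, plus strand: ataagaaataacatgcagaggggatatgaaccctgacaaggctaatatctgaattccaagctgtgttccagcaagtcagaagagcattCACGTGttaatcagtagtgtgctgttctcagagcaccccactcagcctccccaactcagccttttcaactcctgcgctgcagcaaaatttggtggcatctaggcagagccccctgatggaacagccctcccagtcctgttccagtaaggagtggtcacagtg
The match of Kcnn4 begins 133 bases before its start site and that of Kcnab1 162 bases before. The Kcnh2 window lies before a start site inside the gene span given above, and these letters are not in it. A match is a description of the sequence and no binding was measured. The AP-1 motif TGANTCA was in the windows of 4 of the 51 genes, Kcne3, Kcnip3, Kcnip4 and Kcnk2 (5.33% of windows, beside 6.75% of all), none of them with a call after injury.

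The remaining genotype calls at 5 days depended on single libraries or on the library set. Kcnab1 was lower in dKO nerve by 0.77 on the log2 scale (SE 0.21, adjusted p = 0.0295). The value with the set term was -0.78 (SE 0.30, adjusted p = 0.292), of the same size with a wider error. The call was also lost without replicate 1 or 2 of control nerve at 5 days, replicate 3 or 4 of dKO nerve at 5 days or replicate 1 of control intact nerve (-0.78 to -0.62, adjusted p = 0.0551 to 0.113). Kcnip3, which encodes a calcium-binding protein that binds Kv4 channels, had 9.91, 9.25 and 8.72 CPM in dKO nerve at 5 days, 6.23, 5.5 and 5.79 CPM in control nerve at 5 days, 8.27, 11.2 and 10.3 CPM in dKO intact nerve and 7.97, 5.5 and 7.91 CPM in control intact nerve. In both states each dKO library stood above each control library. The difference at 5 days was 0.67 (SE 0.20, adjusted p = 0.0412), while the set term gave 0.68 (SE 0.29, adjusted p = 0.36). Leaving out any library at 5 days, replicate 3 or 4 of dKO intact nerve or replicate 3 of control intact nerve lost this call, with values of 0.62 to 0.72 (adjusted p = 0.0591 to 0.133). Kcnt1 was higher in dKO nerve by 2.60 (SE 0.62, adjusted p = 0.021), and by 1.46 (SE 0.65, adjusted p = 0.397) with the set term. Without replicate 2 of dKO nerve, or replicate 1 or 2 of control nerve, at 5 days it was 2.09 to 2.40 (adjusted p = 0.0607 to 0.0864), and without replicate 4 of control nerve at 5 days it was 3.64 (adjusted p = 0.00262).

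Kcnma1 (chr14:23289431-24014491), which encodes the pore of the BK channel, had 14.1, 10.2 and 7.16 CPM in dKO nerve at 5 days, 2.97, 2.7 and 7.23 CPM in control nerve at 5 days, 3.06, 3.14 and 3.09 CPM in dKO intact nerve and 3.4, 1.82 and 3.62 CPM in control intact nerve. Replicate 4 of control nerve at 5 days overlapped the dKO libraries and the 2 other control libraries stood with the intact ones. The difference at 5 days was 1.30 (SE 0.38, adjusted p = 0.0394), 1.88 without control replicate 4 (adjusted p = 0.00354) and 0.54 with the set term (SE 0.42, adjusted p = 0.71). The call was lost without any 1 of 7 libraries, replicates 2 and 3 of dKO nerve and 1 and 2 of control nerve at 5 days and all 3 of dKO intact nerve (1.02 to 1.32, adjusted p = 0.0541 to 0.171). The injury change in dKO nerve was 1.76 (SE 0.39, adjusted p = 0.00202), while the set term gave 0.41 (SE 0.53, adjusted p = 0.654).

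The difference of injury changes, dKO minus control, was tested as an interaction. Kcnj10 had a higher change in dKO nerve (1.43%, beside 0.737% of all genes tested), and Kcnh2 and Kcnn4 had lower ones (2.86%, beside 2.17%). The difference was -1.66 (SE 0.28, adjusted p = 0.00458) for Kcnh2 and -1.53 (SE 0.22, adjusted p = 0.00125) for Kcnn4. With the set term they were -1.58 (SE 0.34, adjusted p = 0.0643) and -1.58 (SE 0.26, adjusted p = 0.0132), so that the call of Kcnh2 was lost at nearly the same size.

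Kcnj10 (chr1:172341210-172374085) encodes Kir4.1, the glial channel that takes up potassium around active axons. It had 5.19, 6.5 and 6.41 CPM in dKO nerve at 5 days, 5.38, 3.4 and 3.29 CPM in control nerve at 5 days, 5.78, 3.63 and 5.57 CPM in dKO intact nerve and 10.5, 16.4 and 8.61 CPM in control intact nerve. Control intact libraries stood above all 9 others, and the dKO libraries of both states overlapped. It fell in control nerve by 1.55 (SE 0.29, adjusted p = 0.00051) and had 0.27 (SE 0.29, adjusted p = 0.464) in dKO nerve, a difference of 1.82 (SE 0.41, adjusted p = 0.0258). In intact nerve the genotype difference was -1.24 (SE 0.29), with an unadjusted p of 0.000697 by edgeR and an adjusted p of 0.841. The difference of injury changes was 2.12 (SE 0.53, adjusted p = 0.112) with the set term. Without replicate 3 or 4 of dKO nerve at 5 days, replicate 2 of control nerve at 5 days or replicate 3 or 4 of dKO intact nerve it was 1.63 to 1.90, and the call was lost (adjusted p = 0.0517 to 0.0765).

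Transcripts of proteins that hold and serve these channels were read from other lists. Of 15 tested genes of the juxtaparanode and its neighbours, 3 rose and 6 fell in dKO nerve (20.0% and 40%, beside 22.0% and 22.6% of all genes tested; median log2 change 0.01), and 4 rose and 6 fell in control nerve (26.7% and 40%, beside 24.4% and 22.4%; median -0.14). Cntnap2, which encodes Caspr2, had 54.9, 58.7 and 44.5 CPM in dKO nerve at 5 days, 26.0, 37.7 and 47.2 CPM in control nerve at 5 days, 39.9, 37.7 and 37.1 CPM in dKO intact nerve and 42.0, 42.0 and 38.2 CPM in control intact nerve, and rose in dKO nerve by 0.47 (adjusted p = 0.0386). Dpp6, a partner of Kv4 channels, rose in dKO nerve by 1.40 (adjusted p = 0.0157), with 13.9, 13.9 and 6.7 CPM in dKO nerve at 5 days and 3.01, 3.18 and 10.4 CPM in control nerve at 5 days. For both genes replicate 4 was the highest of the control libraries at 5 days. Of 8 tested channel partners, 2 rose and 1 fell in dKO nerve (25.0% and 12.5%, median 0.15) and 2 fell in control nerve (25.0%, median -0.32). Of 17 genes of potassium pumps, cotransporters and related channels, 1 rose and 11 fell in dKO nerve (median -0.88) and 4 rose and 9 fell in control nerve (median -0.83). Of these, Atp1b3, a beta subunit of the sodium pump, was lower in dKO nerve at 5 days (-0.93, adjusted p = 6.04e-05), and its injury change was lower in dKO nerve too (-0.92, adjusted p = 0.00329). Neurofilament and other axonal transcripts, 8 genes, had 2 rising and 5 falling members in either genotype, with Nefm at -3.67 (adjusted p = 6.21e-09) in dKO nerve and -3.74 (adjusted p = 2.82e-09) in control nerve. The rising members were Tubb3, which encodes a neuronal tubulin, at 4.17 in dKO nerve and 4.91 in control nerve, and Uchl1, which encodes a ubiquitin hydrolase of neurons, at 0.87 and 2.23. With these genes the summed level of the list was higher after injury, at 262 to 347 CPM in dKO nerve at 5 days and 501 to 613 CPM in control nerve at 5 days, against 172 to 208 CPM in dKO intact nerve and 157 to 184 CPM in control intact nerve.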

How the data were processed

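The 12 libraries (4 groups of 3) hold RNA of mouse sciatic nerve. Per the labels' protocols, polyA RNA went into libraries of the Ion Total RNA-Seq kit, and per the submitters' processing notes mm10, DESeq2 and R 4.2.1 were used. Not given in the sources used here: aligner, counter, strand and annotation. The authors' raw table holds whole-number counts per gene symbol, and the authors' normalized table holds a signal, the counts divided by 1 size factor per library.

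The members and lists were chosen with earlier results of these data known. Channel genes, with a mean count of at least 10, were matched to GENCODE M21, all 70 to 1 gene each. The test on counts was that of edgeR 4.0.16 (R 4.3.3): filterByExpr (minimum count 10), TMM factors, and 1 robust quasi-likelihood fit over all 12 libraries with a mean per group. Benjamini-Hochberg adjustment ran over all 22384 tested models per comparison, with a threshold of 0.05. CPM values use TMM-scaled totals; CPM per kb divides by the merged exon length. The fits were tested on simulated data. Genes with values in full were named by rule: those called between genotypes or in the difference of injury changes, the 8 smallest p per injury comparison, the 2 highest per length in each class, and Kcna1, Kcna2, Kcnj8, Kcnj10, Kcnk1 and Kcnk2. Other genes named, and the split at a mean of 5 CPM, were chosen after their values were seen.

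Alternatives were DESeq2 1.42.0, limma-trend (limma 3.58.1) on log2 of the deposited normalized values plus 1, DESeq2 and upper-quartile scaling, no and a stricter low-count filter, fits of the compared groups, a library set term, a replicate block, a threshold of 0.01, and leaving out each library. An exact permutation test of 3 against 3 libraries cannot go below a p of 0.1, so none was used. A channel gene and a gene of another list are counted in the totals and not reported here by name.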

Additional observations from a re-analysis of the deposited data

Results flagged for a closer look

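Of the 70 channel genes, 3 had injury changes that differed between genotypes by the test of the difference itself. Kcnj10 differed by 1.82, dKO minus control, on the log2 scale: it had 0.27 in dKO nerve and fell by 1.55 in control nerve. Kcnh2 differed by -1.66, with -1.48 in dKO nerve and 0.19 in control nerve. Kcnn4 differed by -1.53, with 0.32 in dKO nerve and 1.85 in control nerve. All 3 dKO libraries showed the direction beside all 3 control libraries at 5 days for Kcnh2 and Kcnn4. For Kcnj10 the genotypes overlapped at 5 days, and the intact libraries of the genotypes did not overlap.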

How the results depend on the processing

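No called result of a gene named by the rule changed direction. Results without a call were not followed in this count. Kcnk2, for example, had a genotype value at 5 days of -0.31, and of 0.21 with the set term. Of the other genes named, Kcnq3 and Kcnh5 turned to -0.27 for injury in dKO nerve with the library set as a term. The genes named by the rule gave 38 called results and 795 values under the alternatives. Of these values 742 kept their call, 53 lost it and 0 turned round. In every alternative that gave a value, 29 of the 38 results kept their call. Kcnn4 kept its calls under every alternative. In dKO nerve the 22 rising channel genes numbered 2 with the library set as a term, 11 at a threshold of 0.01, and 11 to 24 with 1 library left out (11 without replicate 3 and 14 without replicate 2 of dKO nerve at 5 days, 13 without replicate 3 of dKO intact nerve). The 17 falling ones numbered 11 with the set term and 14 to 19 with 1 library left out. In control nerve 8 to 11 rose and 18 to 20 fell with 1 library left out. In intact nerve the genotype comparison gave 0 under each alternative. At 5 days the 3 genes higher in dKO nerve numbered 0 with the set term, 9 by DESeq2, 1 in a fit of the compared groups, 0 at a threshold of 0.01 and 0 to 12 with 1 library left out. They were 12 without replicate 4 of control nerve at 5 days, 0 without its replicate 1 or 2 or without replicate 2 of dKO nerve, 1 without replicate 3 of dKO nerve at 5 days or replicate 3 or 4 of dKO intact nerve, and 6 without replicate 2 of control intact nerve. Over all genes tested, 699 were higher in dKO nerve at 5 days, and 1227 by DESeq2. They numbered 1421 without replicate 4 of control nerve at 5 days, 446 without replicate 1 and 479 without replicate 2. The 3 lower channel genes numbered 2 to 4 with 1 library left out. For the difference of injury changes, the 1 higher gene numbered 0 with the set term and at 0.01 and 0 to 3 with 1 library left out, and the 2 lower numbered 1 with the set term and 2 to 2 with 1 library left out. The cause was not tested.

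With the replicate number as a block, the genes higher in dKO nerve at 5 days numbered 1, those with a higher injury change 0 (Kcnj10, adjusted p = 0.0531), and rising genes in dKO nerve 18; no other count moved by over 1.5 times. Whether the numbers pair the libraries was not settled, except for number 1 of control nerve. Its library at 5 days had 10712 Xist counts and 244 counts of Y-linked genes. Its intact library had 3 and 3068, so these libraries are not of the same mouse. Between the states, deviations of same-numbered dKO libraries correlated at 0.118, 0.1 and -0.013 (replicates 2, 3 and 4). In control nerve the values were -0.09 and -0.005 (replicates 1 and 2). Replicates 2 and 3 of dKO nerve correlated best with their own number and replicate 4 did not. For the other numbers, correlations this weak can neither show nor exclude a pairing. Upper-quartile scaling moved the median of all genes for injury in dKO nerve to 0.193, against 0.051. Channel genes under 5 CPM rest on few reads, and intervals of log2 changes cover the spread of 3 libraries.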
